A study of Mus musculus with 9 samples.

Results

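The kinesin superfamily genes were read from a time course of mouse primary myoblasts, the dividing precursors of skeletal muscle, that differentiated in culture into multinucleate myotubes. Members were all probe sets that named exactly 1 gene whose symbol begins with Kif and a digit, with the probe set of highest mean standing for the gene. This gave 38 genes from 44 probe sets, out of 19938 genes with a probe set of their own: 12 mitotic kinesins, 13 transport kinesins, 12 other kinesins of ciliary, microtubule-regulating or less settled function, and the pseudogene Kif4-ps. The cells were wild-type Balb/c skeletal muscle cells on 9 Affymetrix arrays, 3 of cycling myoblasts (0 hours), 3 of myotubes after 2 days and 3 of myotubes after 5 days in differentiating medium. All groups shared strain and genotype. The growth protocol gives the same serum and bFGF medium for every sample, so only the sample titles record the differentiating medium. The labels do not state whether replicates are separate cultures or animals, and the p-values therefore measure array-to-array spread alone, which may be technical.

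Kinesins are motor proteins that use ATP to walk along microtubules or to take them apart at their ends. Mitotic kinesins build the spindle, move chromosomes and drive cytokinesis, and their genes are transcribed mainly in dividing cells. Transport kinesins carry mitochondria, vesicles and other cargo through non-dividing cells, and in muscle fibres the conventional kinesin heavy chain Kif5b also spreads the nuclei along the fibre. Other members trim microtubules or work in the cilium.

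All levels are log2 RMA values, and RMA had been run separately on the 3 arrays of each time point. Median levels per array were 4.34 (cycling myoblasts), 4.26 (day 2) and 3.99 (day 5), so the time points were not on one scale. Each change therefore has a pair of log2 fold changes (log2FC), the first from the deposited values and the second from a common scale made by quantile normalization over all 9 arrays. The median log2FC of all 16582 genes tested was -0.01 and 0.09 at day 2 against cycling myoblasts, -0.37 and 0.17 at day 5 against cycling myoblasts, and -0.40 and 0.05 at day 5 against day 2. A gene is said to have risen or fallen where limma's adjusted p was under 0.05 and the change was at least 2-fold in one direction on both scales. A level is called low where it was at or below the 30th percentile of its array on all 3 arrays, since such a level is not shown to lie above background. The deposited values were coarse: 26 of the 38 members had the same value on all 3 myoblast arrays, 31 at day 2 and 28 at day 5. Of all probe sets, 47.9%, 60.2% and 56.7% did. For such genes limma's p-values rest on little or no measured spread. At day 2, 65.7% of probe sets shared their value with another probe set of the array, and some of the genes below show equal levels.

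The labelled cell types were checked against their markers. All 7 myotube markers (Myh3, Myh8, Ckm, Acta1, Actn2, Tnnc2 and Ryr1) rose at day 2 and at day 5, both against cycling myoblasts. Of the 4 myoblast markers, Pax7 and Myf5 fell at both times, Myod1 had log2FC -0.96 and -0.93 at day 2 and fell at day 5, and Des, which is also a protein of mature muscle, rose at both times (log2FC 1.27 and 1.48, then 1.13 and 1.69). All 4 endothelial markers lay below the array median on all 9 arrays, as did 3 of 4 leukocyte, 3 of 4 Schwann cell or neuron and 3 of 4 adipocyte markers. The summed level of the 6 fibroblast markers ran, as deposited, from 9.18 to 9.21 (log2) in cycling myoblasts, stood at 7.28 at day 2 and ran from 6.85 to 6.87 on day 5. On the common scale it was 8.91 to 8.92, 7.19 to 7.20 and 7.25 to 7.26. Dcn and Lum lay below the array median on all 9 arrays, Col1a1 and Thy1 above it on all 9, Col3a1 fell at both times, and Pdgfra, above the median on the day 5 arrays alone, had log2FC 0.69 and 1.19 at day 5 against day 2. The part of these markers in the changes of kinesin genes was not tested.

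Of the 12 mitotic kinesins, 11 fell at day 2 and also at day 5 against cycling myoblasts, and Kif2b did not pass the size limit. Over all genes tested, 8.41% fell at day 2 and 12.3% at day 5 against cycling myoblasts. The median log2FC of the 12 was -4.08 (deposited) and -3.80 (common scale) at day 2, and -4.59 and -4.11 at day 5. The largest limma adjusted p among the 11, over both scales, was 9.17e-09 at day 2 and 4.63e-09 at day 5. In cycling myoblasts these 11 genes stood at percentiles 64.7 to 94.1 of their arrays, at day 2 at percentiles 11.5 to 49.0 and at day 5 at percentiles 8.78 to 47.1. All 11 were thus under the array median at both later times, and 7 of the 11 were low at day 2 and 7 at day 5, so the exact sizes of the falls and their order are not known. Of the mitotic members, 6 passed the filter on low levels through the myoblast arrays alone. For these (Kif14, Kif15, Kif18a, Kif20b, Kif2c and Kif4) the fall was built into their inclusion. The counts, medians and p-values above include them. In these cultures fewer dividing cells and less RNA per cell cannot be told apart.

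**Figure D1:**
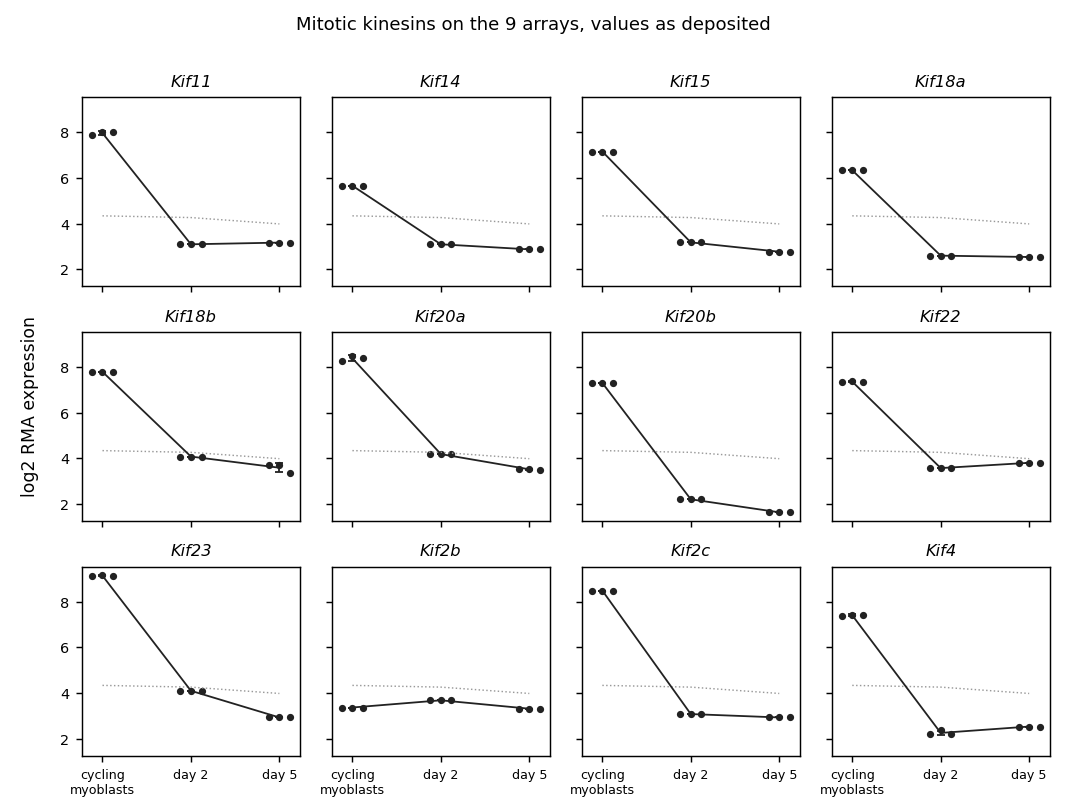
Log2 RMA level as deposited (vertical axis) of the 12 mitotic kinesins in cycling myoblasts, at day 2 and on day 5. Points are single arrays, lines join the means, bars are the SD over 3 arrays and the dotted line is the mean array median; 11 genes start above that line and end below it, and Kif2b stays under it throughout.

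The kinesins that set up the spindle fell together. Kif11, which pushes the spindle poles apart, was at 7.86, 8.02 and 7.99 in cycling myoblasts, at 3.10 on all 3 arrays at day 2 and at 3.17 on all 3 on day 5. Its log2FC was -4.86 (deposited) and -4.65 (common scale) at day 2, and -4.79 and -4.32 at day 5. Kif15, which can back up Kif11 in holding the poles apart, was at 7.15 on every myoblast array, 3.18 on every day 2 array and 2.77 on every day 5 array (log2FC -3.97 and -3.67 at day 2, -4.38 and -3.90 at day 5). Both genes fell at day 2 and at day 5.

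The chromokinesins, which bind chromosome arms, also fell. Kif4, which acts in chromosome condensation and with Prc1 at the central spindle, was at 7.36, 7.42 and 7.43 in cycling myoblasts, 2.21, 2.37 and 2.21 at day 2 and 2.54 on all 3 arrays on day 5 (log2FC -5.14 and -4.85 at day 2, -4.87 and -4.40 at day 5). Kif22, which pushes chromosome arms outward, was at 7.35, 7.37 and 7.35, then at 3.58 on all 3 arrays at day 2 and 3.81 on all 3 at day 5 (log2FC -3.78 and -3.47, then -3.55 and -2.95). Both had their lowest mean at day 2, and the day 5 mean stood slightly above it. Kif4 was low at both of these times, so its day 5 arrays are not shown to mark a recovery.

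Among the kinesins that work on microtubule ends, Kif2c, a depolymerase that releases faulty kinetochore attachments, was at 8.48 in cycling myoblasts, 3.09 at day 2 and 2.94 on day 5, with equal values on the 3 arrays of each time (log2FC -5.40 and -5.24 at day 2, -5.55 and -5.16 at day 5). Kif18a, which damps the swings of chromosomes on the spindle, was at 6.33, 2.60 and 2.54, again equal on the 3 arrays of each time (log2FC -3.73 and -3.43, then -3.79 and -3.31). Kif18b, which acts on astral microtubules, was at 7.79 on all 3 myoblast arrays, 4.08 on all 3 at day 2, and 3.70, 3.70 and 3.38 at day 5 (log2FC -3.71 and -3.42, then -4.19 and -3.66). These 3 genes fell at both times. Kif2b, a relative of Kif2c that acts at kinetochores in human cells, was at 3.37, 3.69 and 3.32 with equal values on the 3 arrays of each time. It lay below the array median on all 9 arrays and differed by less than 2-fold (log2FC 0.31 and 0.16 at day 2, -0.05 and 0.03 at day 5).

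All 4 kinesins of the central spindle and of cytokinesis fell. Kif23, the motor of the centralspindlin complex, was at 9.13, 9.16 and 9.13 in cycling myoblasts, 4.10 on all 3 arrays at day 2 and 2.94 on all 3 on day 5 (log2FC -5.03 and -4.84 at day 2, -6.20 and -5.85 at day 5). Kif20a, which brings the chromosomal passenger complex to the central spindle, was at 8.24, 8.50 and 8.39, then at 4.19 on all 3 arrays, then at 3.54, 3.54 and 3.49 (log2FC -4.19 and -3.93, then -4.85 and -4.39). Kif20b, which acts late in cytokinesis, was at 7.30, 2.21 and 1.64, with equal values on the 3 arrays of each time (log2FC -5.09 and -4.77, then -5.66 and -5.08). In each of these genes the day 5 mean was lowest on both scales. The median log2FC of all genes at day 5 against day 2 was -0.40 and 0.05. Kif20b was low at both later times, so its step from day 2 to day 5 is not shown to be a decline. Kif23 was low at day 5. Kif14, which works with citron kinase in cytokinesis, was at 5.66, 3.10 and 2.87, also without spread (log2FC -2.56 and -2.30, then -2.78 and -2.32). A second probe set of Kif14, at 2.15 in cycling myoblasts and low throughout, did not show the fall (differences of 0.49 and 0.39 at day 2, -0.51 and -0.31 at day 5). With both probe sets averaged, the day 2 change of Kif14 was -1.04 and -0.96 and missed 2-fold on the common scale.

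Between day 5 and day 2, only Kif23 of the 12 fell on both scales, against 3.67% of all genes, and 0 rose, against 0.766%. Kif23 had a log2FC of -1.17 as deposited and -1.01 on the common scale (largest limma adjusted p 1.50e-10), and its day 5 level was low. On the common scale the change sat at the 2-fold line, and it was -0.99 when any one of the 3 myoblast arrays was left out. The other 11 ranged from -0.66 (Kif20a) to 0.28 (Kif4) as deposited and from -0.46 (Kif20a) to 0.52 (Kif22) on the common scale, on levels under the array median at both times.

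Promoter sequences are shown for the mitotic kinesins because they moved together. Many genes of G2 and mitosis carry a short element near their start, the cell cycle genes homology region (CHR, TTTGAA), often beside CCAAT boxes, which bind the factor NF-Y. RefSeq promoter windows of build GRCm38.p6, running from 250 bases before to 50 after a transcript's start, matched 31 of the 38 members by symbol. They were searched on both strands for TTTGAA and its variant TTCGAA. The same search covered CCAAT, the E-box CAGCTG and a further E-box, CACCTG, and 0 matches of different motifs overlapped. TTTGAA was found in 9 of the 11 mitotic kinesins with a window, in 1 of 10 transport kinesins (Kif1a) and in 2 of 10 other kinesins (Kif26b and Kif27), against 20.2% of all 27025 genes with a window. CCAAT was found in 7 of 11, 3 of 10 and 4 of 10, against 41.1%. The E-box CAGCTG was found in 1 of 11, 3 of 10 and 0 of 10, against 18.3%, and CACCTG in 3 of 11, 3 of 10 and 3 of 10, against 22.6%. The 2 mitotic kinesins without TTTGAA in the window were Kif18a, which fell, and Kif2b, which did not. A match is a stretch of letters, not a site shown to be bound. The stretches from 90 bases before to 25 after the start are printed below for the 7 mitotic kinesins with TTTGAA inside them. This choice was made after the matches were seen. In Kif14 and Kif2c the match lies outside this stretch. Of all genes with a window, 7.37% hold TTTGAA inside it, as do 1 of 10 transport and 2 of 10 other kinesins. Capitals mark TTTGAA (or its reverse complement TTCAAA) and CCAAT (or ATTGG).
Kif11, chr19:37376292-37376406, plus strand: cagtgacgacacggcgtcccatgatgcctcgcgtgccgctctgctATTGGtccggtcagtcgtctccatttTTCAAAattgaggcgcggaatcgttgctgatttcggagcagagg
Kif15, chr9:122950991-122951105, plus strand: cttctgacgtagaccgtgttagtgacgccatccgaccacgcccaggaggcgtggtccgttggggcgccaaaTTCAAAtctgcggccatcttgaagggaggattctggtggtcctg
Kif22, chr7:127042396-127042510, minus strand: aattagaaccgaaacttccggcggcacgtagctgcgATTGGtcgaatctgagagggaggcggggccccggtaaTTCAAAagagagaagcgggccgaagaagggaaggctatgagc
Kif4, chrX:100625975-100626089, plus strand: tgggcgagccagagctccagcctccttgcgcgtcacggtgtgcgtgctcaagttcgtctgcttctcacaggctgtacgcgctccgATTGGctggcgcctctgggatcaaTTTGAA
Kif18b, chr11:102925100-102925214, minus strand: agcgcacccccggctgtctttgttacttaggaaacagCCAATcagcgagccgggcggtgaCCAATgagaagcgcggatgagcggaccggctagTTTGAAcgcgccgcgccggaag
Kif20b, chr19:34922268-34922382, plus strand: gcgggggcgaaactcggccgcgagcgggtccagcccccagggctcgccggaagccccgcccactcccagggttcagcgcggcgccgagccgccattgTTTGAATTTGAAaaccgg
Kif23, chr9:61946775-61946889, minus strand: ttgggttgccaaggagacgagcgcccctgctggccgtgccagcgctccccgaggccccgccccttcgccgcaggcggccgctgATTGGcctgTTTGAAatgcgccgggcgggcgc
In the printed stretches TTTGAA began 19 bases before the start in Kif11 and Kif15 and 17 before it in Kif22, and after the start in Kif4, Kif18b, Kif20b and Kif23. Kif20b holds a pair of copies side by side. Kif18b holds a pair of CCAAT boxes upstream of its TTTGAA, and in Kif15 and Kif20b the printed stretch holds no CCAAT.

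Genes of proteins that mitotic kinesins act with fell as well. All 14 genes of a list of spindle and cytokinesis partners fell at day 2, against 8.41% of all genes, and at day 5, against 12.3%, with a median log2FC of -4.64 and -4.37 at day 2 and -5.05 and -4.54 at day 5. That list was compiled with the fall of mitosis genes in these data already known and is not independent of it. Bub1, Hmmr and Nusap1 of the list passed the filter on low levels through the myoblast arrays alone, so their fall was built into their inclusion. By their fitted values at day 2 the named examples are the checkpoint kinase Bub1 (log2FC -5.60 and -5.37), the spindle assembly factor Tpx2 (log2FC -5.27 and -5.10), Hmmr (log2FC -5.32 and -5.05) and Bub1b (log2FC -5.04 and -4.87). All 4 were under the array median at day 2, and Bub1 and Hmmr were low, so their order and exact sizes are not known. Partners of single motors were picked after their values were seen. Racgap1, which joins Kif23 in centralspindlin, was at 9.24 on the 3 myoblast arrays, 6.02 ± 0.031 (SD, n = 3) at day 2 and 5.74 on all 3 at day 5, and remained above the array median. Ect2, a cytokinesis factor that centralspindlin recruits, was at 9.17, then at 5.52, 5.45 and 5.45, then at 3.41. Ect2 fell at day 5 against day 2, as Kif23 did (log2FC -2.06 and -1.87), whereas Racgap1 had -0.27 and 0.37. Prc1, the partner of Kif4, had log2FC -5.00 and -4.81 at day 2, and the citron kinase gene Cit, the partner of Kif14, -1.97 and -1.65. Of the mitotic kinesins whose symbols do not begin with Kif and a digit, the kinetochore motor Cenpe was at 7.05, 7.17 and 7.05 in cycling myoblasts, 3.01 on all 3 arrays at day 2 and 2.70 on all 3 on day 5 (log2FC -4.08 and -3.79, then -4.39 and -3.90). Cenpe was low at both later times and passed the filter through the myoblast arrays alone, so the exact sizes of its falls are not known.

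Of the 13 transport kinesins, 1 rose and 0 fell at day 2, against 6.04% and 8.41% of all genes, and 0 rose and 0 fell at day 5, against 4.44% and 12.3%. The count that rose at day 2 lay near the share of all genes. On the common scale alone, 3 of the 13 passed 2-fold as higher at day 2 (Kif13a, Kif1b and Kif5b) and 3 at day 5 (Kif13a, Kif1c and Kif3c). Without the size limit, 10 of the 13 passed as higher and 1 as lower on both scales at day 2, against 42.8% and 37.4% of all genes, and 6 as higher and 2 as lower at day 5, against 29.7% and 38.1%. Between day 5 and day 2, 0 rose and 0 fell, against 0.766% and 3.67%, and without the size limit 4 passed as higher and 5 as lower, against 16.2% and 40.6%. Their median log2FC was 0.35 and 0.43 at day 2 and 0.00 and 0.57 at day 5. All 13 lay above the 30th percentile on all 9 arrays, and their median percentile was 69.2 in cycling myoblasts, 75.8 at day 2 and 80.9 on day 5.

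**Figure D2:**
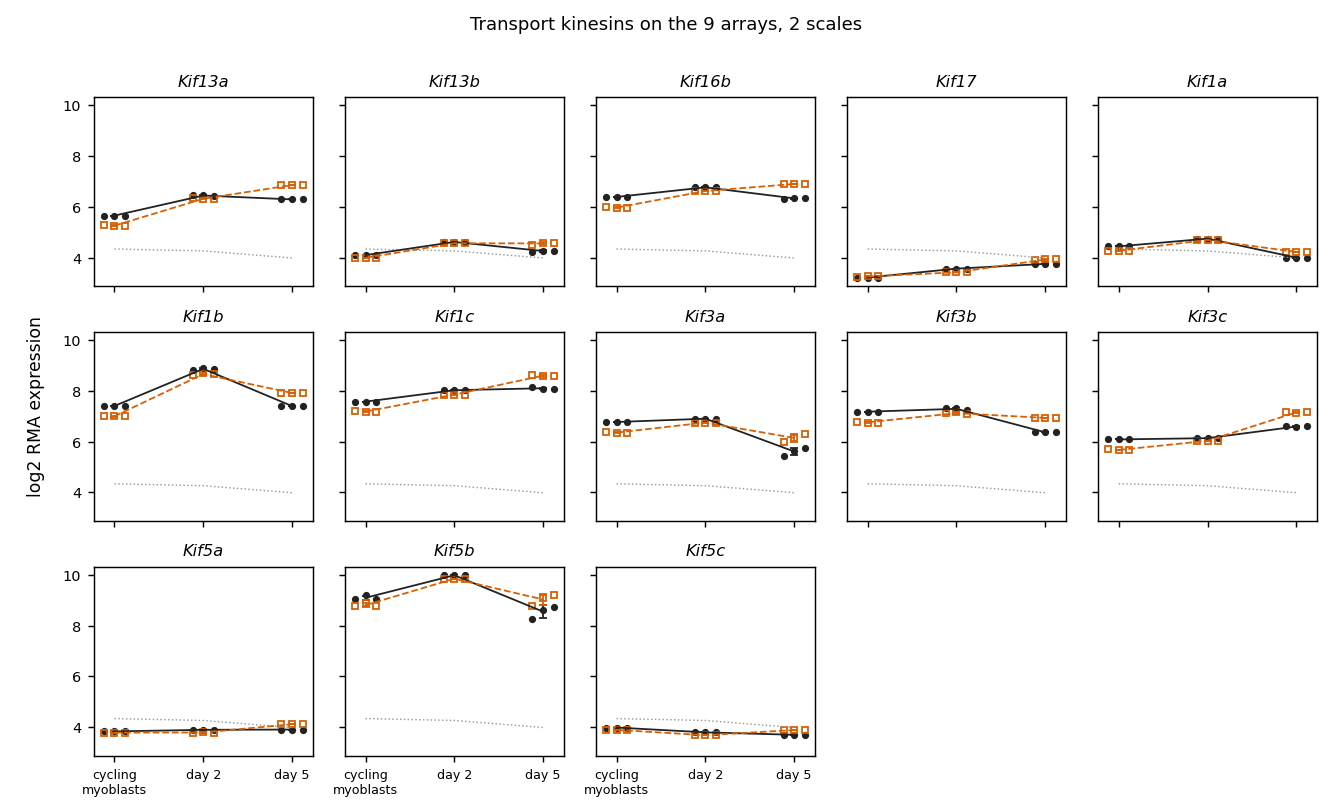
Log2 RMA level (vertical axis) of the 13 transport kinesins in cycling myoblasts, at day 2 and on day 5, as deposited (filled black points, solid line) and on the common scale (open orange squares, dashed line). Points are single arrays, bars the SD over 3 arrays, and the dotted line the mean array median as deposited. The means of Kif1b, Kif5b, Kif1a, Kif3a and Kif3b peak at day 2 on both scales, a pattern not counted over all genes, and the scales part most at day 5.

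Kif1b, which carries synaptic vesicle precursors and mitochondria, was the member that rose. Its deposited level was 7.40, 7.41 and 7.40 in cycling myoblasts, 8.84, 8.90 and 8.87 at day 2 and 7.40 on all 3 arrays on day 5. The mean was highest at day 2 on both scales. The log2FC at day 2 was 1.46 as deposited, 1.66 after quantile normalization, with 2.69e-11 as the largest limma adjusted p. At day 5 it was 0.00 and 0.91 against cycling myoblasts, and -1.47 and -0.75 against day 2, so the later decline reached 2-fold as deposited alone.

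As with Kif1b, Kif1a, Kif3a and Kif3b, the mean of Kif5b, the widely expressed kinesin-1 heavy chain, was highest at day 2 on both scales. This pattern was not counted over all genes. Kif5b did not pass the size limit. Its deposited level was 9.04, 9.20 and 9.06 in cycling myoblasts, 9.99 on all 3 arrays at day 2 and 8.28, 8.63 and 8.76 on day 5. The lowest mean was that of day 5 as deposited and that of cycling myoblasts on the common scale. The log2FC at day 2 was 0.89 and 1.04, and at day 5 against day 2 it was -1.43 and -0.82. At day 5 against cycling myoblasts the sign depended on the scale (-0.55 and 0.22), and the common-scale difference did not pass (limma adjusted p 0.0749). The neuronal heavy chains Kif5a and Kif5c lay below the array median on all 9 arrays, with log2FC between -0.29 and 0.33 in the 3 comparisons on either scale.

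Among motors of vesicles and endosomes, Kif13a and Kif1c were higher than in cycling myoblasts at both times on both scales, and neither reached 2-fold as deposited. Kif13a, which carries endosomal and Golgi-derived cargo, was at 5.66 on all 3 myoblast arrays, 6.46, 6.45 and 6.43 at day 2 and 6.29 on all 3 at day 5. Both myotube means were above the myoblast mean (log2FC 0.79 and 1.06 at day 2, 0.64 and 1.60 at day 5), and 2-fold was reached on the common scale alone. Kif1c, a vesicle and integrin transporter, showed log2FC 0.45 and 0.67 at day 2 and 0.53 and 1.42 at day 5, and its second probe set 0.73 and 0.98, then 0.98 and 1.92. Kif16b, the early endosome motor, had 0.38 and 0.66 at day 2, and at day 5 it passed limma's threshold in opposite directions on the scales (-0.06 and 0.93). Kif13b had 0.52 and 0.57, then 0.16 and 0.57, and its common-scale means at day 2 and day 5 were 4.57 and 4.56. Kif1a and Kif17, motors best known in neurons, stayed within -0.45 to 0.67 on either scale against cycling myoblasts, and Kif17 was below the array median on all 9 arrays.

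The heterotrimeric kinesin-2, made of Kif3a, Kif3b and the accessory protein Kifap3, moves cargo into the cilium. Kif3a was at 6.78, 6.78 and 6.76 in cycling myoblasts, 6.91 on all 3 arrays at day 2 and 5.45, 5.62 and 5.76 on day 5. The day 5 mean was lowest on both scales. Its log2FC at day 5 was -1.16 (deposited) and -0.21 (common scale), so 2-fold was reached as deposited alone. Kif3b had -0.81 and 0.17 at day 5, passing limma's threshold in opposite directions on the scales, and Kifap3 -0.93 and -0.11. At day 2 none of the 3 differed by more than 0.39 on either scale. Kif3c, a second partner of Kif3a that is abundant in neurons, had the opposite sign to Kif3a at day 5, and reached 2-fold on the common scale alone. It was at 6.09 on all 3 myoblast arrays, 6.14, 6.14 and 6.13 at day 2 and 6.61, 6.56 and 6.61 at day 5 (log2FC 0.51 and 1.48 at day 5 against cycling myoblasts, 0.46 and 1.12 against day 2). Of the 4 Schwann cell or neuron markers, Tubb3, Map2 and S100b lay below the array median on all 9 arrays. Sox10 lay above it on the day 2 and day 5 arrays. At day 2 Tubb3 fell (log2FC -1.25 and -1.25) onto a low level, and S100b rose (log2FC 1.43 and 1.28) from a low level. The part of these markers in the level of Kif3c was not tested.

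Among partners and cargo adaptors of kinesin-1, 17 of 18 genes with a probe set were tested. At day 2, 1 rose and 1 fell, against 6.04% and 8.41% of all genes, and at day 5, 0 rose and 1 fell, against 4.44% and 12.3%, so the counts lay near or below those shares. The median log2FC was 0.51 and 0.70 at day 2 and -0.25 and 0.44 at day 5. Trak1, which links kinesin-1 to mitochondria, rose at day 2 (log2FC 1.23 and 1.48): it was at 6.48 on the 3 myoblast arrays, 7.71 on the 3 day 2 arrays and 7.14, 7.12 and 7.14 at day 5. Syne2, a nesprin of the nuclear envelope, fell at both times (log2FC -2.38 and -2.02, then -2.90 and -2.33). Of the 4 probe sets of Syne2, only the one with the highest mean is described. Its level was 6.39, 6.40 and 6.40 on the myoblast arrays, 4.02 at day 2 and 3.50 on day 5. Among genes named after their values were seen, the light chain Klc4 (log2FC 0.87 and 1.15 at day 2, 0.88 and 1.84 at day 5) and Map7, which binds Kif5b in muscle fibres (0.58 and 0.52, then 0.24 and 0.44), did not reach 2-fold on both scales.

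Of the 12 other kinesins, 0 rose and 1 fell at day 2, and 0 rose and 2 fell at day 5, against the same backgrounds of 6.04% and 8.41%, then 4.44% and 12.3%. The median log2FC was 0.07 and 0.01 at day 2 and -0.20 and 0.16 at day 5. The members that fell were Kif27 at day 2 and Kif2a and Kif24 at day 5.

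**Figure D3:**
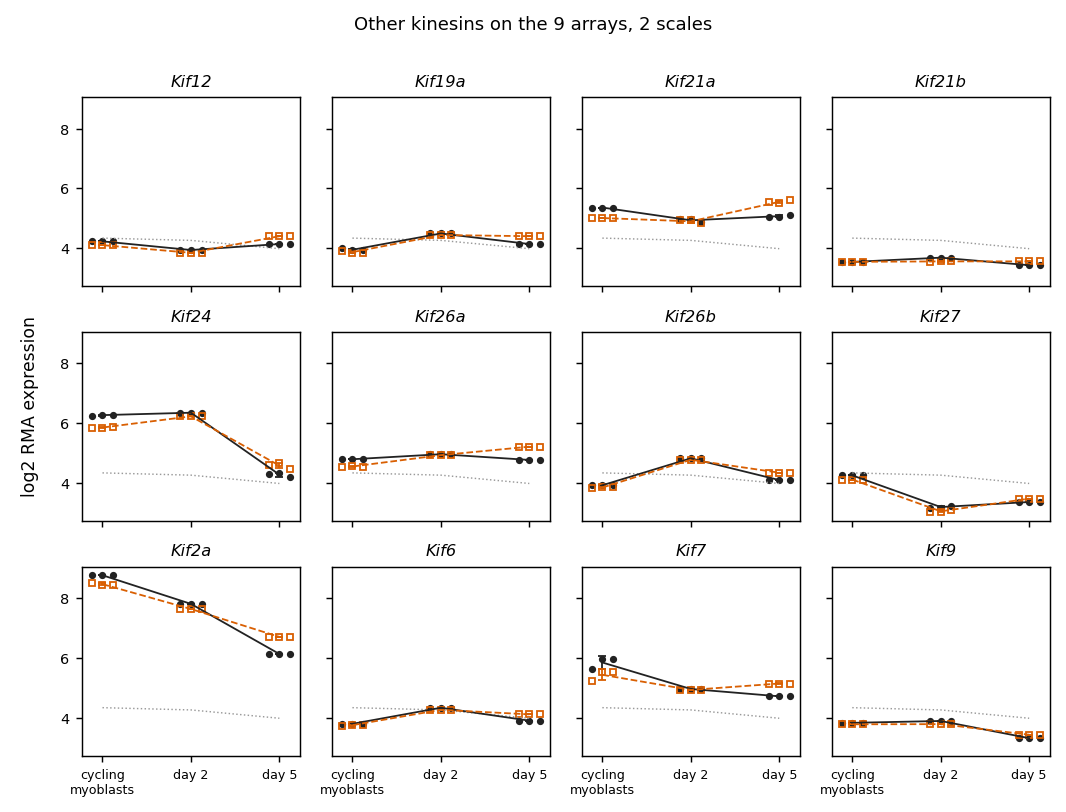
Log2 RMA level (vertical axis) of the 12 other kinesins in cycling myoblasts, at day 2 and on day 5, as deposited (filled black points, solid line) and on the common scale (open orange squares, dashed line). Points are single arrays, bars the SD over 3 arrays, and the dotted line the mean array median as deposited; Kif2a steps down at each time, and Kif24 drops at day 5 alone.

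Kif2a, a microtubule depolymerase of spindle poles that also works in neurons, stepped down at each time. It was at 8.76 in cycling myoblasts, 7.81 at day 2 and 6.13 on day 5, with equal values on the 3 arrays of each time. Its log2FC was -0.96 and -0.83 at day 2, -2.63 and -1.76 at day 5, and -1.67 and -0.93 at day 5 against day 2. It stayed above the array median on all 9 arrays, unlike its relative Kif2c, which was under the median at both later times.

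Kif24, which in human cells trims centriolar microtubules and restrains the cilium, fell late. Its level was 6.25, 6.28 and 6.28 in cycling myoblasts, 6.35 on all 3 arrays at day 2 and 4.30, 4.34 and 4.20 on day 5. The day 5 mean was lowest on both scales. The log2FC was 0.08 and 0.37 at day 2, -1.99 and -1.27 at day 5, and -2.07 and -1.64 at day 5 against day 2 (largest limma adjusted p 1.33e-08 over the last pair of comparisons). Kif24 was the member of its group that fell between day 2 and day 5, where 3.67% of all genes did.

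Promoters of the 4 members outside the mitotic group that passed the size limit in any comparison are shown for contrast, over the same stretch. Capitals mark TTTGAA, its variant, and CCAAT, on either strand.
Kif24, chr4:41464824-41464938, minus strand: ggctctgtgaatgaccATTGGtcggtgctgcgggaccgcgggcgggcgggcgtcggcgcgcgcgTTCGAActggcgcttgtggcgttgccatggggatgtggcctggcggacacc
Kif1b, chr4:149307709-149307823, minus strand: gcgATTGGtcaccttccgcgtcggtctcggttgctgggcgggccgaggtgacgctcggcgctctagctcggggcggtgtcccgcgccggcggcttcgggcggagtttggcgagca
Kif2a, chr13:107022331-107022445, minus strand: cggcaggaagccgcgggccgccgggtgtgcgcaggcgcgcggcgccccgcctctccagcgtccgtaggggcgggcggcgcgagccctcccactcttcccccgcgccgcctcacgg
Kif27, chr13:58354923-58355037, minus strand: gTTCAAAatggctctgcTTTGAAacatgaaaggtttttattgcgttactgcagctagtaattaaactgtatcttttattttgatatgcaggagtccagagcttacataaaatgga
The printed stretch of Kif24 holds TTCGAA, a variant of the CHR found in 1.80% of all genes with a window, and its full window holds 4 CCAAT boxes. Kif1b has a CCAAT box at the edge of the stretch and Kif2a shows none of the 3 motifs. Kif27, the relative of Kif7 described next, holds a pair of TTTGAA matches at the upstream end. Kif1b and Kif2a each had 2 windows, and the one that starts farther upstream is shown.

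Of the members tied to Hedgehog signalling and motile cilia, Kif27 fell at day 2 and the others did not pass the size limit on both scales. Kif27, a relative of Kif7, was at 4.26 on all 3 myoblast arrays, 3.18, 3.18 and 3.25 at day 2 and 3.37 on all 3 at day 5. It fell at day 2 (log2FC -1.06 and -1.06) onto a low level, lay below the array median on all 9 arrays, and had -0.89 and -0.64 at day 5. Kif7, which organises the tip of the cilium in Hedgehog signalling, was at 5.62, 5.96 and 5.96, then 4.96 on all 3 arrays, then 4.72 on all 3. Its log2FC of -0.88 and -0.50 at day 2 and -1.13 and -0.29 at day 5 did not reach 2-fold on both scales, and a second probe set gave -0.88 and -0.51, then -1.04 and -0.22. The remaining 8 members were Kif6, Kif9 and Kif19a, known from cilia, Kif21a and Kif21b, which slow microtubule growth, the atypical Kif26a and Kif26b, and Kif12. Against cycling myoblasts they ranged from -0.51 (Kif9) to 0.90 (Kif26b) as deposited and from -0.35 (Kif9) to 0.93 (Kif26b) on the common scale. At day 2 a second probe set of Kif26b gave 0.27 and 0.30, where the chosen one gave 0.90 and 0.93. For Kif6 the second gave 0.06 and -0.04, and the chosen one 0.54 and 0.51. At day 5 Kif12, Kif21a, Kif21b and Kif26a passed limma's threshold one way as deposited and the other way on the common scale.

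Kif4-ps, a pseudogene of Kif4 on another chromosome, could share probes with Kif4. It was at 3.06, 3.10 and 3.00 in cycling myoblasts, at day 2 and on day 5, low on all 9 arrays and therefore not tested, while Kif4 was at 7.36 to 7.43 in cycling myoblasts.

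**Figure D4:**
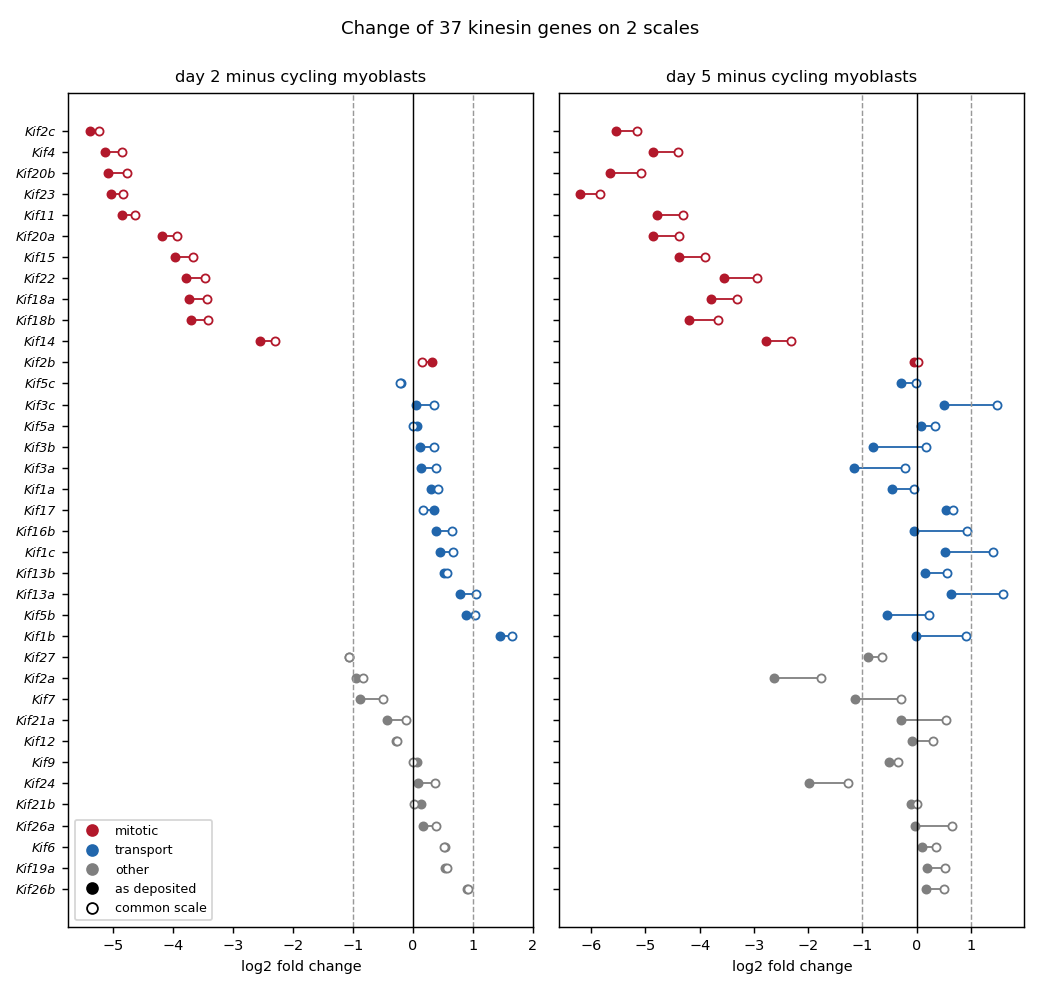
Log2 fold change (horizontal axis) of the 37 tested kinesin genes, day 2 and day 5 each minus cycling myoblasts, as deposited (filled) and on the common scale (open), grouped as mitotic, transport and other. Dashed lines mark 2-fold; 11 mitotic kinesins lie beyond -2 on both scales, and transport kinesins between -1.16 and 1.66.

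**Figure D5:**
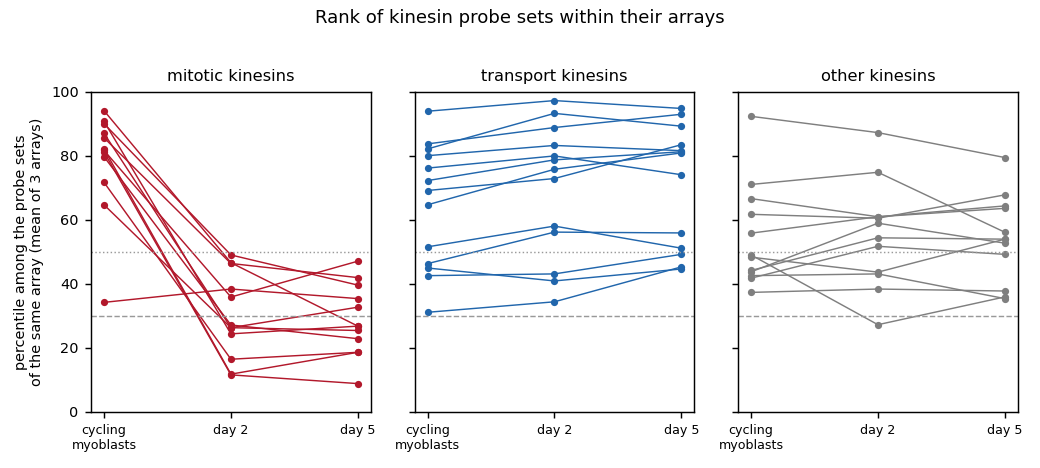
Percentile of each kinesin probe set among all probe sets of its array (vertical axis, mean of 3 arrays) in cycling myoblasts, at day 2 and on day 5. The dotted line is the array median and the dashed line the 30th percentile; 11 mitotic kinesins stand at percentiles 64.7 to 94.1 in cycling myoblasts and 8.78 to 47.1 at day 5, and transport kinesins at 31.1 to 94.0 and 44.6 to 94.8.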

How the data were processed

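Expression was measured on 9 Affymetrix arrays. The authors deposited log2 RMA values for 35556 probe sets, and RMA was run per replicate set, per the submitters' processing notes and the series' design text; its version and probe set library are not given in the sources used here. Sorted values of any pair of arrays differed on average by at most 0.0251 within a time point and at least 0.188 between time points, so the set was the time point. The deposited table holds no background measure, and the number of arrays limits the precision.

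Of the probe sets, 21789 had 1 gene in the platform annotation, 1621 had several and 12146 had none. A gene entered the test where its highest-mean probe set exceeded the array's 30th percentile on 3 or more arrays (16582 genes, 37 of 38 kinesins). One limma 3.58.1 model (R 4.3.3, lmFit and eBayes) with a mean per time point was fitted to all 9 arrays as deposited and after quantile normalization over all 9, with Benjamini-Hochberg adjustment over all genes. The fit was tested on simulated data. Same-numbered replicates were not paired: the correlation of their deviations ran from -0.0150 to 0.0907. Alternatives were other scales, filters, size limits, variance moderation, probe set averaging, a replicate block and leaving out each array. By rule, per-array values are given for the mitotic kinesins and for members that passed the size limit. Up to 4 genes with the largest called changes are named per partner list, also by rule. By later choice, per-array values are given for Kif5b, Kif13a, Kif3a, Kif3c, Kif7 and Kif4-ps. All genes of the intraflagellar transport list that fell are named, likewise by later choice. Members and lists were chosen with earlier results of these data known.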

Additional observations from a re-analysis of the deposited data

How the results depend on the processing

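The counts of mitotic kinesins that fell at day 2 and at day 5 (11 each) were the same under every alternative run, except that averaging the probe sets took Kif14 out at day 2 (10). The smaller counts moved. For day 5 against day 2, the 1 mitotic kinesin that fell became 0 with arrays centred on their median (Kif23 at -0.89), and 0 to 1 when single arrays were left out (0 without any one myoblast array). Kif27 had -0.98 at day 2 with median centring. Transport kinesins higher at day 2 numbered 3 on the common scale alone and 3 at a 1.5-fold limit, against 1. At day 5 against cycling myoblasts 1 was lower as deposited alone, 3 were higher on the common scale alone and 1 at 1.5-fold, against 0 for each. At day 5 against day 2, 3 were lower as deposited alone, with median centring and at 1.5-fold, and 1 was higher on the common scale alone, against 0. Other kinesins lower at day 2 numbered 0 with median centring, 0 with the filter at the array median and 2 at 1.5-fold, against 1, and 1 was higher at 1.5-fold, against 0. Of these, 2 were lower at day 5 against day 2, as deposited alone, with median centring and at 1.5-fold, against 1. With the replicate block the counts that fell were 11 and 11 for mitotic kinesins, and no call changed. Over all genes, the day 5 split against cycling myoblasts was 736 higher and 2040 lower on both scales, 736 and 4840 as deposited, 1960 and 2040 on the common scale, and 1413 and 3336 with median centring. The split at day 5 against day 2 was 127 and 609 on both scales, 2548 lower as deposited, 461 higher on the common scale, and 234 and 1287 with median centring. At a 1.5-fold limit, higher and lower genes numbered 2208 and 2555 at day 2 (1002 and 1394 at 2-fold), 1615 and 3317 at day 5, and 365 and 1801 between them.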

Other observations

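Dynein and dynactin are the machinery that moves cargo toward microtubule minus ends. Of 19 genes tested by limma, 1 rose and 1 fell at day 2, near the shares of all genes (6.04% and 8.41%). At day 5 against cycling myoblasts 0 rose and 0 fell, against 4.44% and 12.3%, and without the size limit 2 were higher and 6 lower on both scales, against 29.7% and 38.1%. Dync1i1, an intermediate chain of cytoplasmic dynein, rose at day 2 (log2FC 1.03 and 1.05): it was at 3.83, 3.94 and 3.83 in cycling myoblasts, 4.90 on all 3 arrays at day 2 and 3.66 on all 3 at day 5. Nde1, a dynein regulator of the spindle and of dividing neural progenitors, fell at day 2 (log2FC -1.39 and -1.13).

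Of 19 genes of kinesin-2 and intraflagellar transport, which builds and maintains the cilium, 3 fell at day 2 and 6 at day 5 and 0 rose, where 8.41% and 12.3% of all genes fell. The median log2FC was -0.68 and -0.38 at day 2 and -1.14 and -0.18 at day 5. The falls were largest for Ift80 (7.82 in cycling myoblasts, 6.07 at day 2 and 4.95 on day 5, with equal values on the 3 arrays of each time) and Ttc21b (6.58, 4.59 and 4.21, likewise). Ift140 (log2FC -1.41 and -1.03 at day 2) also fell at both times. Ift74 (log2FC -2.25 and -1.47), Wdr19 (log2FC -1.95 and -1.16) and Ift81 (log2FC -1.98 and -1.13) fell at day 5. Outside the symbol rule, Kifc2, Kifc3 and Stard9 did not reach 2-fold on both scales in any of the 3 comparisons.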
